A study of Mus musculus with 22 samples.

Results

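The matrix metalloproteases, the ADAMTS proteases, the ADAMTS-like proteins and the tissue inhibitors of metalloproteases were followed with age in the whole ovary of the outbred CD1 mouse. Genes were taken by symbol, which gave 51 of the 34745 genes listed: 23 Mmp, 19 Adamts, 5 Adamtsl and 4 Timp genes. Of these, 38 reached 1 FPKM (reads or fragments per length of transcript and per size of library) in at least 2 libraries and were tested, namely 12 Mmp, 18 Adamts, 4 Adamtsl and all 4 Timp genes. Total RNA was sequenced at 11 ages with 2 libraries each, 22 in all: 3 fetal ages, embryonic days 13, 15 and 17 (written E13, E15 and E17), the newborn (P0), postnatal day 3 (P3), 7 (P7), 14 (P14), 21 (P21) and 60 (P60), and animals aged 1 year (Y1) or 2 years (Y2). The labels name 1 stock, no treatment and no cycle stage. No label tells if the pair of libraries at an age was made from different animals or from pools, so a p-value here reflects only how much these libraries vary, and that may be technical. Whether the fetal and postnatal columns, which carry different numbers of decimals, were quantified together is not known.

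Matrix metalloproteases (MMPs) are zinc-dependent proteases that cut collagens, gelatin and other matrix proteins. They are made as inactive proforms and blocked by TIMPs, which bind the active site. ADAMTS proteases are related secreted enzymes with thrombospondin repeats that process procollagens or cut the proteoglycans versican, aggrecan and brevican, and ADAMTS-like proteins keep the repeats but lack the protease domain. In the ovary these enzymes act where follicles grow, rupture and turn into corpora lutea, the progesterone-making bodies that are later broken down.

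The Mmp genes fell into a physical group and a dispersed group. In GENCODE M21 on mm10, 10 of the 23 (Mmp13, Mmp12, Mmp1b, Mmp3, Mmp1a, Mmp10, Mmp8, Mmp27, Mmp20 and Mmp7) lay in 1 run on chromosome 9, from 7272514 to 7699585. This run holds the collagenases Mmp8 and Mmp13, the stromelysins Mmp3 and Mmp10, matrilysin (Mmp7) and macrophage elastase (Mmp12). Of its 10 genes 2, Mmp10 and Mmp12, reached 1 FPKM in at least 2 libraries, and the highest value in the run was 14.1 FPKM, for Mmp12 at Y2. Outside the run 10 of 13 Mmp genes did so. RefSeq promoter windows on GRCm38.p6, of 250 bases before and 50 after a gene's start, matched 36 of the 51 members with 39 windows. All members without a window lay outside the run, among them Mmp2, Mmp9, Mmp16, Mmp17 and Mmp19. Counts for members outside the run are therefore incomplete. The letters TGANTCA (a consensus of the AP-1 motif, sought as exact letters only) stood on either strand in 8 of the 39 windows (20.5%). They stood in 7.81% of all 32851 windows. All 8 belonged to the run on chromosome 9, which had 12 windows for its 10 genes, and 0 to the 27 other members' windows. TATAAA, on either strand, stood in 9 of the 12 and in 3 of the 27, against 13.6% of all windows. GGGCGG (the GC box) showed the reverse, in 0 of the 12 and in 22 of the 27, against 35.7% of all windows. Windows for Mmp10, Mmp12 and Mmp13 from the run, and for Mmp14 and Timp1 from outside it, are printed to show these letters, with any match to these 3 motifs in capitals (in Timp1 it is the reverse complement of the GC box). The 2 matches in Mmp14 follow each other directly and form 1 run of capitals.
Mmp10: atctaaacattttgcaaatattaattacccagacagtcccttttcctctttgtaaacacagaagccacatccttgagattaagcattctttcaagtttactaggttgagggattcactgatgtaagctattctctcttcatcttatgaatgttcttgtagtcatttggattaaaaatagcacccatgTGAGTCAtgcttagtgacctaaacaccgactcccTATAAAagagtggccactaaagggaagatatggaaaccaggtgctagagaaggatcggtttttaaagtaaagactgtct
Mmp12: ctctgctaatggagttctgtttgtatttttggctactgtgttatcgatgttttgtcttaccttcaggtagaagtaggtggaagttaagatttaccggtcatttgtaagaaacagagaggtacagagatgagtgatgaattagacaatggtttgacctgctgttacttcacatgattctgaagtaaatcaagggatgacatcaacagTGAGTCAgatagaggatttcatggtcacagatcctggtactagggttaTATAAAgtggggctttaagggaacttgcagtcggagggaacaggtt
Mmp13: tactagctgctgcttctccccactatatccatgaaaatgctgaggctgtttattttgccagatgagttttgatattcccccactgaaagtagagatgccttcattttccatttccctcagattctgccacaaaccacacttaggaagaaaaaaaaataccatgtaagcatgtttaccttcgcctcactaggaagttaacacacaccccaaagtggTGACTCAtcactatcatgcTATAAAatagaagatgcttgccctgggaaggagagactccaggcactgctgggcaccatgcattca
Mmp14: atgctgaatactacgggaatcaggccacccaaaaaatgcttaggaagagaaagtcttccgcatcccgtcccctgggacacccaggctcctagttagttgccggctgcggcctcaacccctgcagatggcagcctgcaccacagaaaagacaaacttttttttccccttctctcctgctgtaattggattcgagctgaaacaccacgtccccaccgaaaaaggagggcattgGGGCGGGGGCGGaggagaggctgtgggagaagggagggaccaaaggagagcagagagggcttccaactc
Timp1: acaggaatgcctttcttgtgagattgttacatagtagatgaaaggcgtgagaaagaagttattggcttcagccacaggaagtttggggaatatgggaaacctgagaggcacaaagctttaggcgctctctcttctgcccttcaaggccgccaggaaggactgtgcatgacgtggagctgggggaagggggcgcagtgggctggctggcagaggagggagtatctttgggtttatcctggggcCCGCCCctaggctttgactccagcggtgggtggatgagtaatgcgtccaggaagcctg
All 5 windows are on the plus strand, at chr9:7502092-7502391, chr9:7347124-7347423, chr9:7272264-7272563, chr14:54431348-54431647 and chrX:20869916-20870215. The Mmp12 window is the second of its 2 annotated starts, and the first, at chr9:7344147-7344446, held none of the 3 motifs. In Mmp10 the TGANTCA letters began 63 bases before the start and TATAAA 29 bases before it. A match is only a description of the letters. Near matches to TGANTCA, such as tgagtaa in the Timp1 window, were not sought or marked.

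Members ranged widely in level, which FPKM allow to be set between genes because they are per transcript length. The highest means over the 22 libraries were those of Mmp2 (116 FPKM), Timp2 (74.9), Timp1 (50.7), Mmp14 (49.2), Timp3 (42.4), Mmp11 (33.3), Adamts2 (26.6) and Adamts19 (24.1). In any library 40 members reached 1 FPKM, and 16 did so in all 22. The 13 that did not qualify were Adamts13, Adamtsl3, Mmp1a, Mmp1b, Mmp3, Mmp7, Mmp8, Mmp13, Mmp20, Mmp21, Mmp24, Mmp25 and Mmp27. Of these, Mmp8 passed 1 FPKM in a single library and Mmp13 did so too, at 1.36 FPKM in Y2 replicate 2. Mmp1a was listed at 0 in every library. Just outside the threshold were Mmp13 and Mmp25, with second-highest libraries at 0.874 and 0.876 FPKM, and just inside it were Adamts3 (1.18) and Mmp10 (1.29). Depth, estimated from the spacing of low values, was 11480000 to 18140000 reads per library, so 1 FPKM of a 2 kb transcript stands for 23 to 36.3 reads, and 3 reads stand for 0.0827 to 0.131 FPKM. The lowest values therefore rest on a few reads, and a member listed at 0 was not detectable at this depth.

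The libraries of an age resembled each other across all tested genes with Pearson r of 0.980 to 0.992 at 10 ages, and of 0.940 at Y2. For the members, the SD between replicates on log2(FPKM + 1) was 0.0816 to 0.211 at 9 ages, 0.344 at P0 and 0.529 at Y2. The Y2 libraries differed in transcripts that mark the corpus luteum. Star, which brings cholesterol to steroid synthesis, stood at 123 and 3275 FPKM, and Ptgfr, the luteal prostaglandin receptor, at 0.432 and 164. Markers of ovary differed widely between ages. The summed granulosa cell list was 33.7 to 43.9 FPKM at E13 and E15, with 1 or 2 of its 7 genes at 0, and 2636 to 2717 at P21. The summed oocyte list was 0.585 to 1.40 FPKM at E13 and E15, with 3 or 4 of its 7 genes at 0, and 1125 to 1470 at P14. In bulk tissue, fewer cells of a type and less RNA per cell cannot be told apart.

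**Figure D1:**
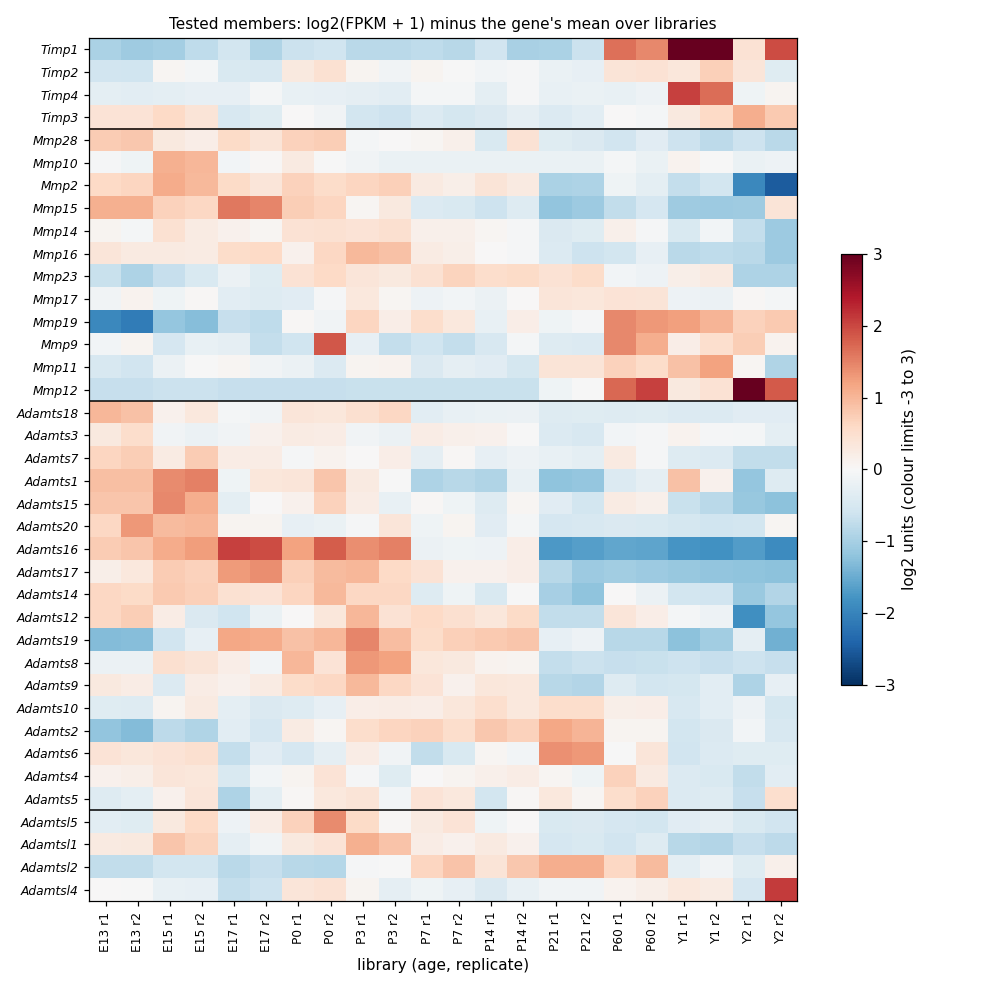
Each cell is a tested member's log2(FPKM + 1) in 1 library minus that gene's mean over the 22 libraries, with rows grouped as Timp, Mmp, Adamts and Adamtsl and ordered by the age of the highest mean. Timp1 and Mmp12 are high only in adult libraries, Adamts16 and Adamts17 are high before P7, and the Y2 libraries differ from each other in Timp1, Mmp15 and Adamtsl4.

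Age was tested with limma on log2(FPKM + 1), with p-values adjusted by the Benjamini-Hochberg method over all 16117 genes tested and called at 0.05. The spread of each gene was estimated once over all 11 ages. Standard errors and p-values of comparisons with Y2 or P0 therefore do not reflect the wider spread there (members' SD 0.529 and 0.344). Over all ages 37 of 38 members changed (97.4%), against 88.1% of all genes, and the exception was Adamtsl4 (adjusted p = 0.364). Its Y2 libraries differed widely, at 0.580 and 8.56 FPKM. With the Y2 libraries left out, limma called Adamtsl4 lower at E17 than at E13 (-0.68, adjusted p = 3.3e-04). It was then also called higher at P7 than at E17 (0.47, adjusted p = 0.0039) and at P60 than at P7 (0.33, adjusted p = 0.030). The mean was highest at P3 for 7 members, at E13 and P60 for 5 each, and at P14 for 0. It was lowest at Y2 for 10 members and at E13 for 8. Between E13 and E17, 6 members rose (15.8%, against 18.6% of all genes) and 11 fell (28.9%, against 14.2%). Between E17 and P7, 9 rose (23.7%, against 16.6%) and 5 fell (13.2%, against 20.7%). Between P7 and P60, 8 rose (21.1%, against 13.3%) and 12 fell (31.6%, against 21.8%). Between P60 and Y2, 1 rose (2.63%, against 10.8%) and 16 fell (42.1%, against 17.4%). The libraries of the 2 ages did not overlap for any of these calls. With 2 libraries per age this adds little, since many members that were not called did not overlap either. Among those not called, the libraries overlapped for 7 of 21, 8 of 24, 5 of 18 and 12 of 21 in the 4 comparisons. The median log2 difference of the tested members was -0.04, 0.04, -0.09 and -0.39 in these 4 comparisons, beside 0.03, -0.04, -0.07 and -0.04 over all genes. Under quantile normalization the share of calls over all genes that were higher at E17 than at E13 moved from 56.7% to 46.3%. Some counts depended on 1 library. The 11 lower at E17 became 6 without E13 replicate 2 and 7 without E17 replicate 1. The 9 higher at P7 became 5 without E17 replicate 1 or without P7 replicate 1, and the 1 higher at Y2 became 3 without either Y2 library.

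**Figure D2:**
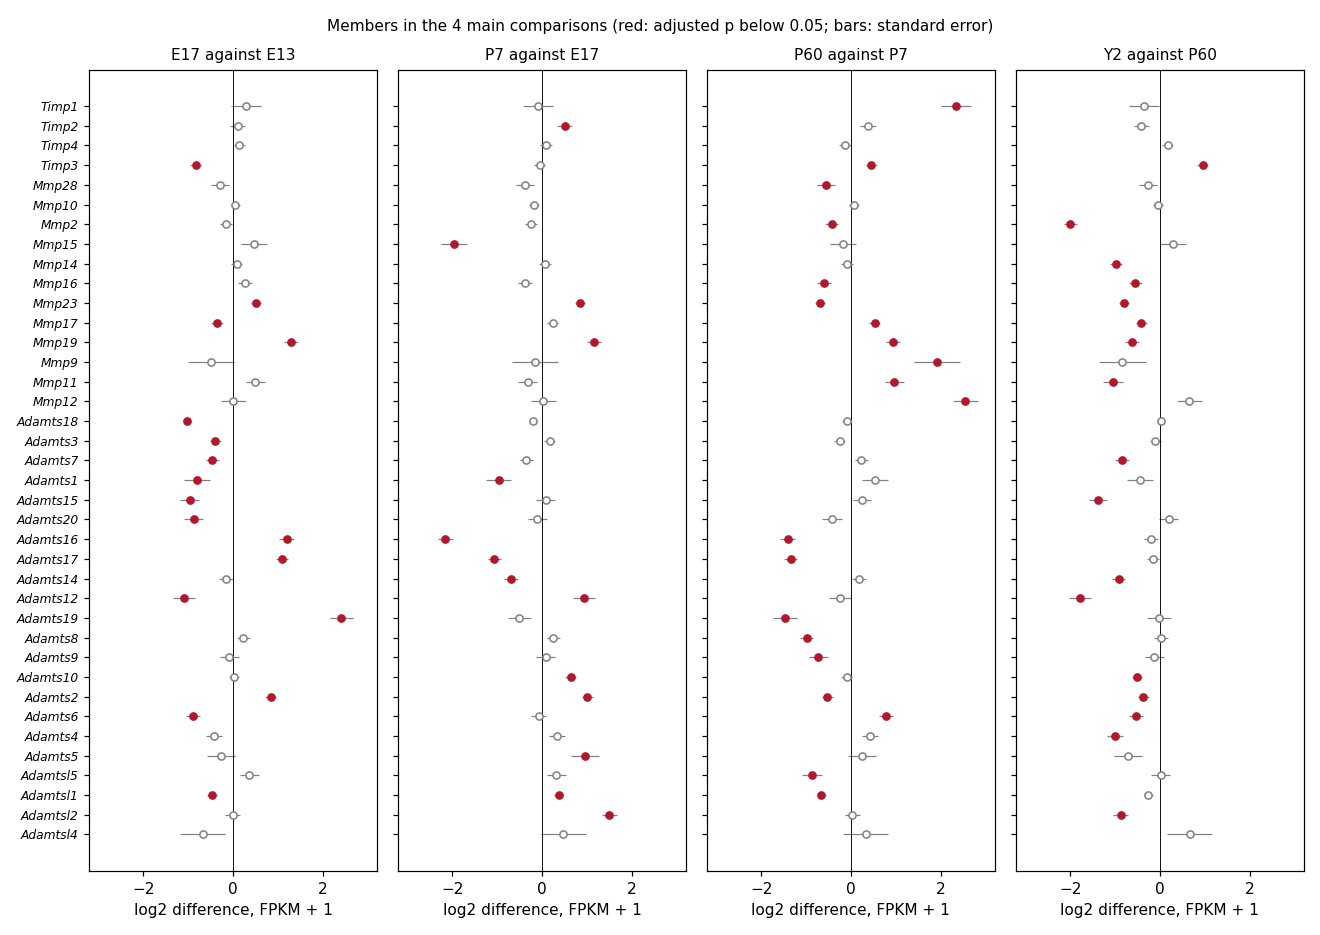
Points give each tested member's log2 difference (later age minus earlier, on FPKM + 1) in the 4 main comparisons, bars the standard error, and filled red points an adjusted p below 0.05. At Y2 against P60 the red points lie left of 0 except that of Timp3 at 0.95.

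Among the inhibitors, Timp1 (ENSMUSG00000001131, chromosome X, 20870166 to 20874735, plus strand), which blocks most secreted MMPs, had the widest range in FPKM of all members. It stood between 10.5 and 15.6 FPKM in all 16 libraries from E13 to P21. At P60 its 2 libraries read 75.4 and 64.5 FPKM, at Y1 382 and 262, and at Y2 31.6 and 92.7. All adult libraries were thus above all younger ones, and the Y1 libraries stood above every other. The rise from P7 to P60 was 2.34 ± 0.34 (SE; adjusted p = 9.0e-05, limma), the step from P21 to P60 was as large (2.34 ± 0.34, adjusted p = 3.0e-04), that from P60 to Y1 was 2.17 ± 0.34 (adjusted p = 7.1e-04), and the fall from Y1 to Y2 was -2.52 ± 0.34 (adjusted p = 7.9e-05). From P60 to Y2 the difference was -0.35 ± 0.34 and was not called (adjusted p = 0.48), but it was -1.115 (adjusted p = 0.0018) without Y2 replicate 2 and 0.41 (adjusted p = 0.174) without Y2 replicate 1. A summed list of 7 theca and luteal markers stood at 2641 and 2838 FPKM at P60, 7223 and 5789 at Y1, and 1856 and 8213.9 at Y2. The higher Y2 library for Timp1 is the one with the higher luteal sum, and the part of luteal tissue in these Timp1 levels was not tested.

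Timp2 (ENSMUSG00000017466, chromosome 11, 118301069 to 118355740, minus strand), which also serves MMP14 in activating pro-MMP2, had the narrowest range of the 4 relative to its level. It ranged from 48.0 FPKM at E13 to 121 in a Y1 library. Its libraries read 48.3 and 48.0 FPKM at E13, 52.2 and 51.5 at E17, 77.0 and 71.5 at P7, 95.4 and 98.5 at P60, and 93.2 and 56.6 at Y2. It rose from E17 to P7 by 0.51 ± 0.17 (adjusted p = 0.029, limma), and the call was lost when any 1 of those 4 libraries was left out, with adjusted p from 0.0686 to 0.139. The step from E17 to P0, from 52.2 and 51.5 to 88.5 and 101 FPKM, was 0.85 ± 0.17 (adjusted p = 0.0038). From P7 to P60 the difference of 0.38 was not called (adjusted p = 0.099) and was called without the Y2 libraries (adjusted p = 0.00919) or with median-of-ratios scaling (adjusted p = 0.0246). The difference from P60 to Y2, -0.41 with adjusted p = 0.088, was -0.77 (adjusted p = 3.8e-04) without Y2 replicate 1.

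Timp3 (ENSMUSG00000020044, chromosome 10, 86300372 to 86349506, plus strand) binds to the matrix itself and also blocks ADAMTS and ADAM enzymes. It was the only member called higher at Y2 than at P60. Its libraries read 53.2 and 53.2 FPKM at E13, 28.3 and 30.7 at E17, 29.5 and 27.2 at P7, 40.4 and 38.0 at P60, and 85.7 and 69.0 at Y2. Levels were therefore high at both ends of life, with the lowest mean at P3 (26.7 and 25.5 FPKM). It fell from E13 to E17 by 0.83 on the log2 scale (SE 0.12, adjusted p = 9.6e-05, limma) and rose from P60 to Y2 by 0.95 ± 0.12 (adjusted p = 2.9e-05). The rise from P7 to P60, 0.45 ± 0.12 (adjusted p = 0.0077), was not called without P60 replicate 1 (adjusted p = 0.0599) or P7 replicate 2 (adjusted p = 0.064). Of the exonic bases of Timp3, 21.3% are shared with Syn3 on the opposite strand, and Syn3 stayed between 0.0224 and 0.469 FPKM. The part of the overlap was not tested. At Y2 the summed T and B cell list also stood apart, at 105 and 50.7 FPKM against 0.351 to 11.5 in the other libraries. Most of this Y2 sum was Jchain, at 88.4 and 41.2 FPKM, while Ms4a1 stood at 0.180 and 0.192. The summed surface epithelium list went from 33.8 and 35.1 FPKM at P60 to 180 and 80.8 at Y2, and the oviduct epithelium list from 11.1 and 11.8 to 69.0 and 27.9. Most of the oviduct sum at Y2 was Krt18, at 64.1 and 20.7 FPKM. Pax8 alone of that list was lower at Y2, at 0.0906 and 0.0235 FPKM against 0.135 and 0.138 at P60. The part of these cell types in the Timp3 levels was not tested.

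Timp4 (ENSMUSG00000030317, chromosome 6, 115241892 to 115252205, minus strand), known from heart and fat, reached 1 FPKM at 1 age. Its Y1 libraries read 4.23 and 3.01 FPKM, and the other 20 libraries 0.0139 to 0.344. The step from P60 to Y1 was 2.05 ± 0.13 (adjusted p = 3.0e-07, limma) and that from Y1 to Y2 was -1.88 ± 0.13 (adjusted p = 9.8e-08). None of the 4 main comparisons, which leave Y1 out, called it. The fat marker Adipoq stood at 28.3 FPKM in Y1 replicate 1 and at 0.0818 in replicate 2. It was higher in P14 replicate 2, at 70.7 FPKM, where Timp4 stood at 0.236. The part of fat in these levels was not tested.

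**Figure D3:**
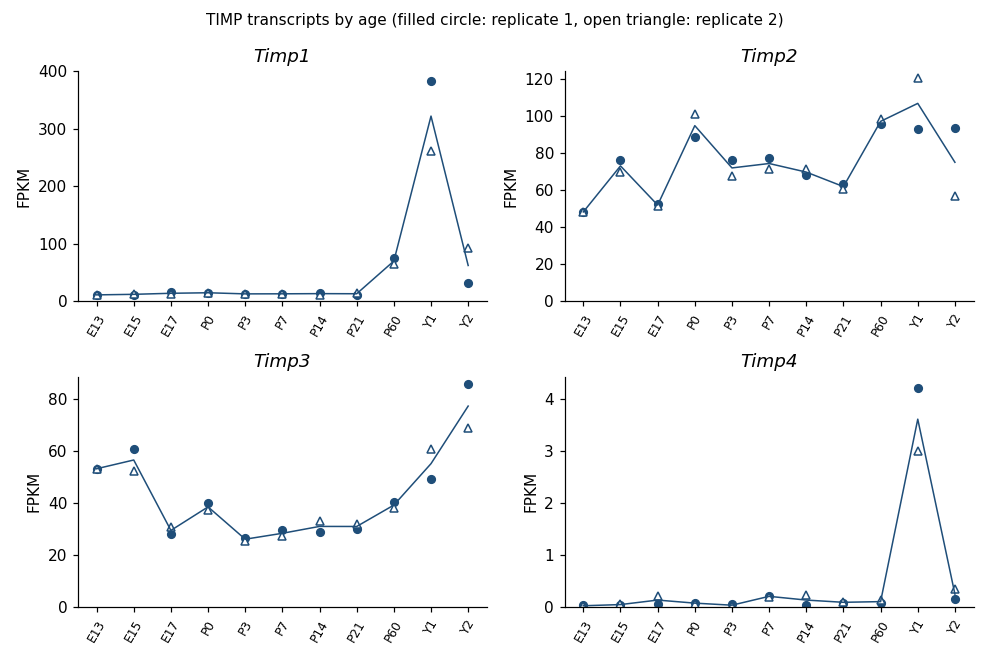
FPKM of the 4 Timp genes in each library by age, with replicate 1 as filled circles, replicate 2 as open triangles and lines through the age means. Timp1 and Timp4 are highest at Y1, Timp3 at Y2, and Timp2 spans 48.0 to 121 FPKM.

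Summed over each family, MMP transcripts were lowest at Y2 and TIMP transcripts highest at Y1, and these sums are descriptions with no test. The 23 Mmp genes summed to 266 and 265 FPKM at E13, 347 and 322 at E15, 163 and 168 at P21, 243 and 224 at P60, and 129 and 97.2 at Y2. Mmp2 alone made up 61.4% of the sum at E15 and 18.5% at Y2. The 4 Timp genes summed to 94.5 to 153 FPKM from E13 to P21, 211.2 and 201 at P60, 528 and 446 at Y1, and 210.6 and 219 at Y2. The ratio of the Timp to the Mmp sum was 0.426 and 0.421 at E13, 0.327 and 0.363 at E17, 0.643 and 0.640 at P21, 0.868 and 0.899 at P60, 2.74 and 1.97 at Y1, and 1.64 and 2.25 at Y2. Without Timp1 the ratio was 0.759 and 0.815 at Y1 and 1.39 and 1.29 at Y2. The Y2 ratio thus stood above that of P60 with or without Timp1, while most of the Y1 ratio was Timp1.

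**Figure D4:**
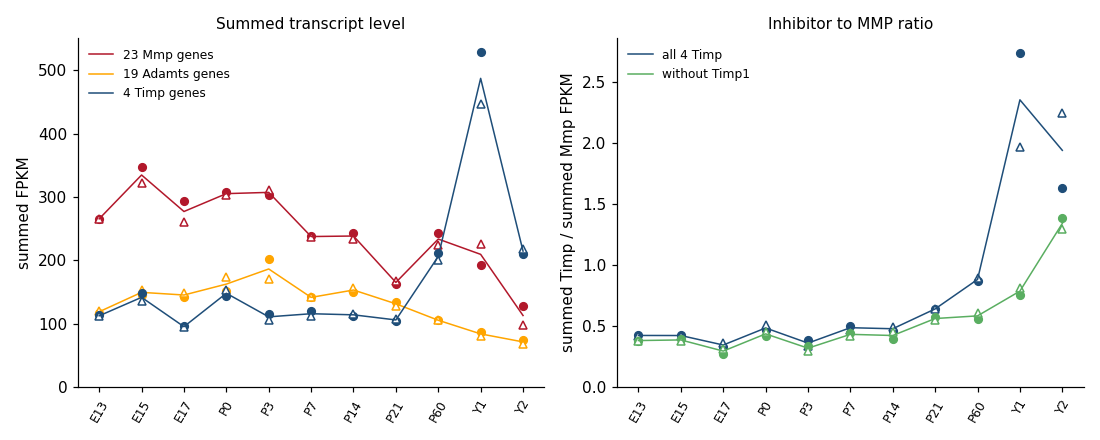
Left, FPKM summed over the 23 Mmp, 19 Adamts and 4 Timp genes in each library by age; right, the Timp sum divided by the Mmp sum, with and without Timp1. Filled circles are replicate 1, open triangles replicate 2 and lines the age means, and the ratio passes 1 at Y1 and Y2 only.

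The gelatinase Mmp2 (ENSMUSG00000031740, chromosome 8, 92827291 to 92853420, plus strand) cuts denatured collagen and type IV collagen of basement membranes. It was the most abundant member at each age from E13 to P14. Its libraries read 150 and 156 FPKM at E13, 216 and 195 at E15, 148 and 127 at E17, 119 and 112 at P7, 50.5 and 52.0 at P21, 89.998 and 81.3 at P60, and 25.3 and 16.8 at Y2. The Y2 libraries were the lowest of the 22. The difference from P60 to Y2 was -2.0004 ± 0.14 (adjusted p = 1.1e-07, limma), and that from P14 to P21 was -1.27 ± 0.14 (adjusted p = 1.2e-05). From P7 to P60 the fall of -0.43 ± 0.14 (adjusted p = 0.028) was not called when any 1 of the 4 libraries was left out, with adjusted p from 0.0526 to 0.168. The rise from P21 to P60 was 0.73 ± 0.14 (adjusted p = 0.0028). The summed fibroblast list stood at 1830 and 1861 FPKM at E15, 1013 and 1025 at P60, and 828 and 411 at Y2. Most of the sum in Y2 replicate 1 was Dcn, at 597 FPKM against 380 and 417 at P60. In replicate 2 Dcn stood at 239. The other listed genes, Pdgfra, Lum, Col1a1, Col3a1 and Tcf21, were lower in both Y2 libraries than at P60. The part of fibroblasts in the Mmp2 levels was not tested.

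Among the membrane-bound enzymes, Mmp14, the MT1-MMP that activates pro-MMP2 and cuts fibrillar collagen, was lowest at Y2. Its libraries read 49.99 and 45.9 FPKM at E13, 51.7 and 49.6 at E17, 63.6 and 66.8 at P3, 53.1 and 52.5 at P7, 35.2 and 36.6 at P21, 53.1 and 46.7 at P60, 34.1 and 45.1 at Y1, and 28.4 and 21.7 at Y2. The fall from P60 to Y2 was -0.98 ± 0.13 (adjusted p = 5.9e-05, limma). The fall from P14 to P21 (-0.40, adjusted p = 0.034) and the rise from P21 to P60 (0.46, adjusted p = 0.029) were each lost without any 1 of the 4 libraries, with adjusted p from 0.0761 to 0.162 and from 0.0552 to 0.219. Mmp15, another membrane-bound type, followed another course, from 36.6 and 33.4 FPKM at E17 to 8.34 and 8.09 at P7 (-1.96 ± 0.29, adjusted p = 9.0e-05). At Y2 its libraries read 4.996 and 15.3 FPKM, on either side of the P60 values of 6.52 and 7.80. Mmp16, also membrane-bound, fell from 2.58 and 2.43 FPKM at P7 to 1.07 and 1.58 at P60 (-0.60 ± 0.15, adjusted p = 0.0061). That call was lost without P60 replicate 1 (adjusted p = 0.0844). Mmp16 also fell from P60 to Y2 (-0.55 ± 0.15, adjusted p = 0.013), but not without P60 replicate 2 (adjusted p = 0.146) or Y2 replicate 2 (adjusted p = 0.0954). Mmp23, which is anchored at its N-terminal end, rose from 9.47 and 7.80 FPKM at E13 to 13.7 and 11.9 at E17 (0.52 ± 0.11) and to 21.9 and 25.5 at P7 (0.84 ± 0.11). It then fell to 14.6 and 13.99 at P60 (-0.69 ± 0.11) and to 7.72 and 7.77 at Y2 (-0.81 ± 0.11), with adjusted p of 0.0023, 2.9e-05, 2.1e-04 and 7.2e-05. Mmp17, which is held by a GPI anchor, stayed between 0.769 and 2.10 FPKM. It was called higher at P60 than at P7 (0.53 ± 0.12, adjusted p = 0.0042). Its falls from E13 to E17 (-0.36, adjusted p = 0.039) and from P60 to Y2 (-0.41, adjusted p = 0.023) were each lost without any of 3 libraries: E13 replicate 2, E17 replicate 1 or 2 (adjusted p 0.0948 to 0.266), and P60 replicate 1 or 2 or Y2 replicate 2 (0.078 to 0.108). Mmp24 and Mmp25 stayed at or below 0.672 and 0.907 FPKM.

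The secreted Mmp11 (stromelysin-3), Mmp19 and Mmp28 moved in different directions with age. Mmp11 read 21.99 and 20.7 FPKM at E13, 32.3 and 28.9 at E17, 22.8 and 25.8 at P7, 50.9 and 46.3 at P60, 57.6 and 73.4 at Y1, and 32.4 and 16.1 at Y2. It rose from P7 to P60 by 0.97 ± 0.22 (adjusted p = 0.0027, limma) and fell from P60 to Y2 (-1.05 ± 0.22, adjusted p = 0.0021; -0.57, adjusted p = 0.0084, without Y2 replicate 2). Mmp19, a protease of basement membrane and aggrecan, climbed from 0.442 and 0.280 FPKM at E13 to 2.41 and 2.25 at E17, 6.98 and 5.88 at P7, and 13.98 and 12.6 at P60. Each of these 3 rises was called, at 1.29 ± 0.16, 1.16 ± 0.16 and 0.95 ± 0.16, with adjusted p of 2.2e-05, 3.9e-05 and 2.8e-04. Its Y2 libraries read 7.88 and 8.53 FPKM, lower than at P60 (-0.63 ± 0.16, adjusted p = 0.0071; adjusted p = 0.0657 without P60 replicate 1). Of its exonic bases, 28.3% are shared with genes on the opposite strand, of which Tmem198b stayed between 3.15 and 5.44 FPKM, and their part was not tested. Mmp28 (epilysin) was highest at E13, at 3.22 and 3.39 FPKM, and its fall from P7 to P60 (-0.56 ± 0.20, adjusted p = 0.043) was lost without any 1 of the 4 libraries (adjusted p 0.0662 to 0.227) and with quantile normalization (0.0911), median-of-ratios scaling (0.0567) or no filter (0.0726).

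The enzymes best known from leukocytes reached 1 FPKM in few of the 22 libraries, Mmp12 in 5, Mmp9 in 8 and Mmp8 in 1. Mmp12, the macrophage elastase, was at or below 0.0371 FPKM in all libraries from E13 to P14. It then read 0.485 and 0.600 FPKM at P21, 4.37 and 5.65 at P60, 0.997 and 1.17 at Y1, and 14.1 and 4.82 at Y2. It rose from P7 to P60 by 2.55 ± 0.28 (adjusted p = 7.4e-06, limma), fell from P60 to Y1 (-1.52 ± 0.28, adjusted p = 0.0024) and rose from Y1 to Y2 (2.17 ± 0.28, adjusted p = 5.2e-05). The P60 to Y2 difference of 0.65 was not called (adjusted p = 0.098) and was 1.34 (adjusted p = 2.7e-06) without Y2 replicate 2. The summed macrophage list stood at 153 to 170 FPKM at P21, 494 and 719 at P60, 254 and 362 at Y1, and 1047 and 440 at Y2. Most of this sum was Lyz2, a lysozyme gene, at 837 and 273 FPKM at Y2. Adgre1, the F4/80 antigen of macrophages, stood at 5.96 and 5.15 FPKM at P21, 6.14 and 6.79 at P60, 4.46 and 5.22 at Y1, and 12.7 and 7.70 at Y2. The list's part in the Mmp12 levels was not tested.

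Mmp8 and Mmp9, the collagenase and gelatinase stored in neutrophil granules, shared 1 high library. In P0 replicate 2 they stood at 5.75 and 6.16 FPKM, and in P0 replicate 1 at 0.346 and 0.314. The summed neutrophil list was nearly the same in both, at 200 and 209 FPKM. Its genes differed, however: Retnlg, of mature neutrophils, stood at 33.1 FPKM in replicate 2 and 0.322 in replicate 1, while Elane and Mpo, of early granule-forming stages, stood at 0.130 and 0.162 in replicate 2 and 49.6 and 44.9 in replicate 1. The part of these cells was not tested. Mmp9 was also higher at P60, at 4.35 and 3.21 FPKM, than at P7, at 0.302 and 0.207 (1.92 ± 0.52, adjusted p = 0.0095, limma). That call was lost without P60 replicate 1 (adjusted p = 0.0668) or P7 replicate 2 (adjusted p = 0.0513).

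**Figure D5:**
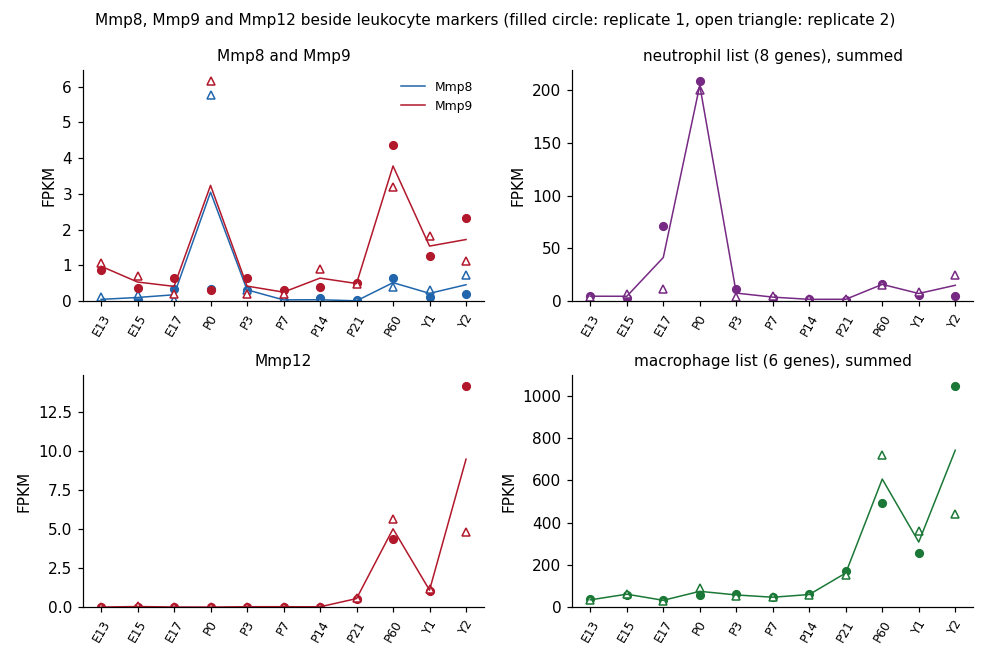
FPKM by age of Mmp8 and Mmp9, of Mmp12, and of the summed neutrophil and macrophage marker lists, with replicate 1 as filled circles, replicate 2 as open triangles and lines through the age means. Mmp8 and Mmp9 are high together in P0 replicate 2, and Mmp12 and the macrophage sum are both highest in Y2 replicate 1.

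Apart from Mmp8 and Mmp12, the genes of the run on chromosome 9 stayed at or below 1.40 FPKM. Mmp10 (stromelysin-2) read 1.40 and 1.29 FPKM at E15 and at most 0.379 elsewhere. It rose from E13 to E15 (1.10 ± 0.10, adjusted p = 8.3e-06, limma) and fell from E15 to E17 (-1.05 ± 0.10, adjusted p = 4.3e-06). Mmp13 (collagenase-3) was at most 0.172 FPKM through P14 and 0.196 to 1.36 from P21 on. Mmp7 (matrilysin) was seen mainly at P3 to P14, at 0.120 to 0.649 FPKM, and Mmp27 was highest at P60, at 0.439 and 0.485. Mmp3 reached 0.459 FPKM in 1 Y2 library, Mmp1b 0.239 and 0.264 at P14 alone, Mmp20 0.0604 at P3, and Mmp21, which lies elsewhere, at most 0.0396. Of 31-base words in the transcript of Mmp1b, 29.0% occur on either strand in transcripts of other genes, so its reads could have been divided between genes. Part of this is its own locus, where 10.8% of its exonic bases overlap Mmp12 on the opposite strand.

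The procollagen N-proteinases Adamts2, Adamts3 and Adamts14 cut the amino-terminal propeptide of fibrillar collagens. Adamts2 was the main one, and its mean was highest at P21. Between neighbouring ages its rises were called up to P3, each call being lost without at least 1 library. No step from P3 to P21 was called for it. Its libraries read 9.88 and 9.05 FPKM at E13, 18.9 and 16.5 at E17, 38.9 and 34.4 at P7, 53.7 and 49.2 at P21, 25.0 and 25.2 at P60, and 22.3 and 16.6 at Y2. The rises from E13 to E17 and from E17 to P7 were 0.84 ± 0.12 and 1.01 ± 0.12 (adjusted p = 1.3e-04 and 1.3e-05, limma), and the fall from P21 to P60 was -1.005 ± 0.12 (adjusted p = 6.9e-05). From P7 to P60 the fall was -0.53 ± 0.12 (adjusted p = 0.0037). The fall of -0.37 from P60 to Y2 (adjusted p = 0.036) was lost without Y2 replicate 2 (-0.16, adjusted p = 0.319) or either P60 library (adjusted p 0.124 and 0.130), and was -0.57 without Y2 replicate 1. Adamts14 was 4.37 and 4.21 FPKM at E17 and 1.98 and 2.59 at P7 (-0.69 ± 0.15, adjusted p = 0.0022), and fell again from 2.94 and 2.46 at P60 to 0.801 and 1.12 at Y2 (-0.92 ± 0.15, adjusted p = 3.5e-04). Adamts3 fell from 1.18 and 1.60 FPKM at E13 to 0.667 and 0.969 at E17 (-0.39, adjusted p = 0.019), but not without E13 replicate 2 (adjusted p = 0.199) or E17 replicate 1 (adjusted p = 0.184).

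The proteoglycan-cutting members had their highest means at different ages. Adamts1, which cuts versican and is known in rodents as a progesterone-induced ovulatory gene, had its highest libraries at E15, at 39.9 and 42.3 FPKM, and its lowest at P21, at 5.59 and 5.80. It fell from E15 to E17, to 12.8 and 18.2 FPKM (-1.37 ± 0.29, adjusted p = 0.0020, limma). Its falls from E13 (27.6 and 27.3 FPKM) to E17 (-0.80 ± 0.29, adjusted p = 0.044) and from E17 to P7 (7.06 and 7.61 FPKM; -0.97 ± 0.29, adjusted p = 0.016) were less secure. The first was lost without E13 replicate 1 or 2 or E17 replicate 1 (adjusted p 0.144, 0.138 and 0.282), and with a pseudocount of 0.1 (0.0501) or no filter (0.0664). The second was lost without E17 replicate 2 (0.132), P7 replicate 1 (0.0779) or P7 replicate 2 (0.0526). At P60 Adamts1 stood at 10.5 and 11.7 FPKM, at Y1 at 27.1 and 15.6, and at Y2 at 5.79 and 10.7.

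Adamts15, another versican-cutting enzyme, fell from 4.83 and 4.84 FPKM at E13 to 1.67 and 2.32 at E17 (-0.97 ± 0.21, adjusted p = 0.0024, limma). It fell again from 2.86 and 2.62 at P60 to 0.487 and 0.392 at Y2 (-1.38 ± 0.21, adjusted p = 1.7e-04). Adamts4 and Adamts5, the aggrecanases, were highest on average at P60, at 3.73 and 2.53 and at 5.18 and 6.02 FPKM. Adamts4 fell to 0.750 and 1.37 at Y2 (-1.005 ± 0.18, adjusted p = 8.0e-04). Adamts5 read 1.66 and 5.09 at Y2 and was not called against P60 (adjusted p = 0.11; -1.31, adjusted p = 0.0024, without Y2 replicate 2). Its rise from 1.28 and 2.52 FPKM at E17 to 4.72 and 4.37 at P7 (0.97 ± 0.31, adjusted p = 0.025) was lost without E17 replicate 1 (0.214), P7 replicate 1 (0.106) or P7 replicate 2 (0.0748). Adamts8 fell from 1.20 and 1.12 FPKM at P7 to 0.0704 and 0.101 at P60 (-0.99 ± 0.15, adjusted p = 1.1e-04). Adamts9 fell over the same interval from 9.02 and 7.23 to 4.77 and 4.18 FPKM (-0.73 ± 0.21, adjusted p = 0.014), but not without P60 replicate 2 (0.0929) or P7 replicate 1 (0.117). Of the exonic bases of Adamts9, 11.99% lie opposite other genes, of which A730049H05Rik was at 13.2 to 19.7 FPKM at Y1 and Y2 and at most 5.67 before, and their part was not tested. Adamts20, a versican-cutting relative of Adamts9, was 1.40 and 2.89 FPKM at E13 and 0.669 and 0.655 at E17 (-0.88 ± 0.22, adjusted p = 0.0061), a call that was lost without E13 replicate 2 (0.106).

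Adamts7 and Adamts12, which cut cartilage oligomeric matrix protein, fell late. Adamts12 fell from 10.6 and 9.47 FPKM at P60 to 1.53 and 3.09 at Y2 (-1.78 ± 0.25, adjusted p = 8.1e-05, limma). It had also fallen from 13.04 and 14.3 FPKM at E13 to 4.97 and 6.90 at E17 (-1.09 ± 0.25, adjusted p = 0.0035). The return to 12.7 and 11.7 at P7 (0.94 ± 0.25, adjusted p = 0.0076) was lost without E17 replicate 1 (0.0818) or P7 replicate 1 (0.0501). Adamts7 fell from 2.91 and 2.19 FPKM at P60 to 0.961 and 0.965 at Y2 (-0.85 ± 0.15, adjusted p = 7.3e-04). Its fall from E13 to E17 (-0.46, adjusted p = 0.031) was lost without any 1 of the 4 libraries (adjusted p 0.0757 to 0.155).

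Adamts16, Adamts17, Adamts18 and Adamts19, whose substrates are less known, had their highest means between E13 and P3. Adamts19 (ENSMUSG00000053441) read 7.41 and 7.58 FPKM at E13, 12.9 and 16.4 at E15, 44.9 and 43.7 at E17, 55.5 and 38.3 at P3, 29.1 and 33.0 at P7, 16.5 and 17.5 at P21, 10.5 and 10.6 at P60, and 16.2 and 6.57 at Y2. It had the largest called rise of any member from E13 to E17, 2.42 ± 0.26 (adjusted p = 8.3e-06, limma). It fell from P7 to P60 (-1.47 ± 0.26, adjusted p = 5.5e-04). The Y2 libraries lay on both sides of those at P60. Adamts16, linked in rodents to gonad development and blood pressure, rose from 6.41 and 6.74 FPKM at E13 to 16.9 and 15.8 at E17 (1.19 ± 0.16, adjusted p = 5.7e-05). It fell to 2.85 and 2.94 at P7 (-2.15 ± 0.16, adjusted p = 7.9e-08) and to 0.479 and 0.445 at P60 (-1.41 ± 0.16, adjusted p = 9.7e-06), and all libraries from P21 on were at or below 0.479. Adamts17, a partner of fibrillins, rose from 2.20 and 2.52 FPKM to 5.89 and 6.44 over the same fetal days (1.09 ± 0.14, adjusted p = 4.3e-05). It fell to 2.82 and 2.07 at P7 (-1.06 ± 0.14, adjusted p = 3.3e-05) and to 0.370 and 0.329 at P60 (-1.34 ± 0.14, adjusted p = 5.4e-06). Adamts18, closest in sequence to Adamts16, went the other way in the fetus, from 1.70 and 1.49 FPKM at E13 to 0.301 and 0.259 at E17 (-1.02 ± 0.09, adjusted p = 1.2e-06).

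Adamts6 and Adamts10, which also act on the fibrillin matrix, peaked at P21. Adamts6 read 5.42 and 5.12 FPKM at E13, 1.95 and 2.87 at E17 and 4.04 and 3.60 at P14, and then 11.7 and 10.9 at P21 and 3.83 and 5.22 at P60. The P21 libraries stood above all others. The rise from P14 to P21 was 1.35 ± 0.16 (adjusted p = 2.2e-05, limma) and the fall to P60 was -1.16 ± 0.16 (adjusted p = 2.0e-04). It had fallen from E13 to E17 (-0.89 ± 0.16, adjusted p = 6.8e-04) and was higher at P60 than at P7, where it read 1.89 and 2.54 FPKM (0.78 ± 0.16, adjusted p = 0.0016). The fall from P60 to 2.79 and 2.76 at Y2 (-0.54, adjusted p = 0.021) was lost without P60 replicate 2 (0.211) or Y2 replicate 2 (0.0602). Adamts10 rose from 14.96 and 13.5 FPKM at E17 to 21.5 and 23.8 at P7 (0.64 ± 0.11, adjusted p = 4.9e-04), and fell from 20.9 and 21.2 at P60 to 16.5 and 12.6 at Y2 (-0.52 ± 0.11, adjusted p = 0.0035; -0.34, adjusted p = 0.034, without Y2 replicate 2). Adamts13, the enzyme that trims von Willebrand factor, stayed at or below 0.287 FPKM.

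The ADAMTS-like genes were low, and each had its own course. Adamtsl2, a fibrillin-binding protein, was 0.288 to 0.582 FPKM in all libraries up to P0, 2.63 and 3.196 at P7, 2.56 and 3.46 at P60 and 0.811 and 1.60 at Y2. It rose from E17 to P7 by 1.499 ± 0.17 (adjusted p = 6.0e-06, limma) and fell from P60 to Y2 (-0.88 ± 0.17, adjusted p = 0.0012). Adamtsl1 fell from 2.29 and 2.34 FPKM at E13 to 1.27 and 1.53 at E17 (-0.47 ± 0.11, adjusted p = 0.0038) and from 2.21 and 1.98 at P7 to 0.843 and 1.09 at P60 (-0.66 ± 0.11, adjusted p = 2.6e-04). Its rise between them (0.37, adjusted p = 0.014) was lost without E17 replicate 1 (0.115) or P7 replicate 1 (0.101). Adamtsl5 fell from 1.17 and 1.38 FPKM at P7 to 0.263 and 0.228 at P60 (-0.87 ± 0.22, adjusted p = 0.0058). It stood highest at P0, at 1.87 and 3.82, where its rise from E17 (1.03, adjusted p = 0.0053) was lost without P0 replicate 2 (0.0608) or E17 replicate 1 (0.0554). Adamtsl4 was 0.364 to 2.02 FPKM in 21 libraries and 8.56 in Y2 replicate 2, beside 0.580 in Y2 replicate 1. Adamtsl3 stayed at or below 0.455 FPKM.

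Between neighbouring ages the members changed unevenly, and the steps share libraries with each other. In percent of the 38 tested members called in either direction, with all genes in brackets, the steps were E13 to E15 with 14 members, 36.8% (24.3%), E15 to E17 with 20, 52.6% (34.4%), E17 to P0 with 10, 26.3% (16.8%), P0 to P3 with 11, 28.9% (23.2%), and P3 to P7 with 11, 28.9% (16.8%). Later steps were P14 to P21 with 16 members, 42.1% (26.8%), P21 to P60 with 13, 34.2% (13.5%), P60 to Y1 with 16, 42.1% (14.4%), and Y1 to Y2 with 11, 28.9% (21.8%). Between P7 and P14 limma called 0 members (3.7% of all genes), and 2, Adamts6 and Mmp19, had an unadjusted p under 0.05. In the step from birth to P3 the largest called rise was that of Adamtsl2, from 0.293 and 0.288 to 1.25 and 1.29 FPKM (0.82 ± 0.17, adjusted p = 0.0027). The largest called fall was that of Adamtsl5 (-0.75, adjusted p = 0.021), which was lost without P0 replicate 2 (0.238) or P3 replicate 2 (0.222). From P3 to P7 Adamtsl2 rose again (0.78, adjusted p = 0.0047; 0.052 without P7 replicate 2). Adamts16 had the largest called fall from P3 to P7 (-1.61 ± 0.16, adjusted p = 8.3e-06) and from P14 to P21 (-1.71 ± 0.16, adjusted p = 2.4e-06). From E13 to E15 the largest called fall was that of Adamts12 (-0.79, adjusted p = 0.031), lost without E13 replicate 1 (0.0922), E13 replicate 2 (0.149) or E15 replicate 2 (0.324). From E15 to E17 the largest called rise and fall were those of Adamts19 (1.54 ± 0.26, adjusted p = 4.3e-04) and Adamts15 (-1.41 ± 0.21, adjusted p = 1.3e-04). From E17 to P0 the only called fall was that of Adamts17 (-0.51, adjusted p = 0.025), lost without E17 replicate 1 or 2 (0.0589 and 0.128) or P0 replicate 1 (0.174), and with a pseudocount of 0.1 (0.0911).

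Genes that act with these enzymes were read from lists written from general knowledge with earlier results of these data known. In the plasminogen activator system, whose plasmin activates pro-MMPs, 6 of 10 genes were tested: 2 rose and 1 fell from E13 to E17, 3 rose from E17 to P7, 3 rose and 1 fell from P7 to P60, and 1 rose and 2 fell from P60 to Y2. Plau, the urokinase activator, rose from 7.41 and 5.996 FPKM at E17 to 48.9 and 48.8 at P7 (2.70 ± 0.17, adjusted p = 1.7e-08, limma). Serpine2, a serine protease inhibitor of granulosa cells, rose from 10.3 and 8.57 to 67.8 and 71.4 (2.76 ± 0.11, adjusted p = 2.0e-10) and fell from 77.3 and 72.3 at P60 to 20.5 and 18.2 at Y2 (-1.90 ± 0.11, adjusted p = 1.8e-08). Plat, the tissue activator, fell from 49.2 and 37.9 FPKM at P60 to 16.9 and 11.9 at Y2 (-1.54 ± 0.17, adjusted p = 1.1e-05). The median log2 difference of the tested genes was 0.02, 0.42, 0.23 and 0.08 in the 4 comparisons, beside the 0.03, -0.04, -0.07 and -0.04 over all genes.

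Of 10 ADAM genes, the membrane-bound relatives, 9 were tested: 1 rose and 1 fell from E13 to E17, 2 rose from E17 to P7, 4 rose from P7 to P60, and 1 rose and 2 fell from P60 to Y2. Their median log2 differences were -0.02, 0.32, 0.15 and -0.40. Adam19 fell from 19.5 and 18.2 FPKM at E13 to 6.12 and 7.26 at E17 (-1.37 ± 0.13, adjusted p = 2.6e-06, limma), and Adam12 fell from 6.43 and 6.50 at P60 to 2.03 and 2.03 at Y2 (-1.30 ± 0.10, adjusted p = 1.8e-07). Adam8, known from leukocytes, rose from 1.41 and 1.48 at P7 to 5.93 and 5.19 at P60 (1.42 ± 0.17, adjusted p = 1.3e-05). Of 10 other regulators of MMPs, 9 were tested. From E13 to E17, 2 rose, Thbs1 and Thbs2, matrix proteins that bind MMP2. Thbs1 went from 9.25 and 8.84 FPKM to 68.6 and 69.5 (2.80 ± 0.11, adjusted p = 2.7e-10). The later comparisons called 3 up and 1 down, 1 up and 2 down, and 1 up and 3 down, and the 4 medians were 0.27, 0.03, 0.04 and 0.02. Spock2, a proteoglycan with a role in MMP activation, rose from 5.61 and 5.51 at E17 to 36.5 and 34.0 at P7 (2.47 ± 0.18, adjusted p = 6.5e-08).

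Of 10 substrates and partners of ADAMTS and ADAMTS-like proteins, 9 were tested, and from P60 to Y2 5 fell and 2 rose, with a median of -0.999 on the log2 scale beside -0.04 over all genes. The collagens Col1a1 and Col3a1 fell most, from 144 and 146 FPKM to 20.5 and 26.6 (-2.58 ± 0.17, adjusted p = 4.9e-08, limma) and from 243 and 217 to 40.0 and 45.4 (-2.40 ± 0.14, adjusted p = 2.1e-08). Vcan, versican, fell from 14.8 and 12.8 to 2.74 and 3.18 FPKM (-1.90 ± 0.21, adjusted p = 1.1e-05). Earlier, Vcan had fallen from 34.1 and 34.5 FPKM at E13 to 3.64 and 5.75 at E17 (-2.66 ± 0.21, adjusted p = 4.1e-07, limma). It had then risen to 20.8 and 23.5 at P7 (2.05 ± 0.21, adjusted p = 2.9e-06). Among the proteoglycan-cutting members, Adamts1, Adamts15 and Adamts20 were also called lower at E17, while Adamts4, Adamts5, Adamts8 and Adamts9 were not called. From E17 to P7 Adamts5 was called higher, Adamts1 was called lower, and Adamts4, Adamts8, Adamts9, Adamts15 and Adamts20 were not called. For the whole list the 3 earlier comparisons called 1 up and 2 down, 3 up and 1 down, and 1 up and 4 down. Its medians there were 0.03, 0.18 and -0.34. Of 8 astacin and pappalysin proteases 5 were tested, with 1 down, 2 up and 1 down, 1 down, and 2 down in the 4 comparisons, and medians of -0.18, 0.60, -0.10 and -0.09. Astl, ovastacin, the oocyte protease that cuts ZP2, rose from 0.0419 and 0.0435 FPKM at E17 to 31.7 and 29.3 at P7 (4.92 ± 0.20, adjusted p = 2.1e-10), fell to 5.30 and 5.08 at P60 (-2.35 ± 0.20, adjusted p = 9.5e-07) and to 1.23 and 0.315 at Y2 (-1.85 ± 0.20, adjusted p = 9.7e-06). Over the same ages the summed oocyte list went from 22.9 to 30.9 FPKM at E17 to 1252 and 1282 at P7 and 57.8 and 13.7 at Y2.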

How the data were processed

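RNA was sequenced from whole ovaries, dissected in cold salt solution and frozen, per the labels' protocols. The authors deposited 1 table of FPKM per gene and library. HISAT2, StringTie, edgeR and build mm10 are named, per the submitters' processing notes, while the series' design text names TopHat, and which aligner made the FPKM is not settled by these sources. For versions, strand use and multiply matching reads the answer is not given in the sources used here.

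Each library was placed by its label. Differences were tested with limma 3.58.1 in R 4.3.3 on log2(FPKM + 1), with genes at 1 FPKM or more in at least 2 libraries (16117 of 34745), age as a factor in 1 fit of 22 libraries, 11 residual degrees of freedom and an intensity trend. Benjamini-Hochberg adjustment ran over all genes in each comparison, with calls at 0.05. A log2 difference with 1 added understates changes near or under 1 FPKM, and FPKM are relative to the library total. Depth was read from whole-read multiples in genes with 1 transcript: 1158 to 1444 values under 0.2 FPKM per library, of which 94.5% to 97.1% were whole within 0.02 reads. Such multiples were not sought in genes with several transcripts, so no count test was run.

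The text names every member, with per-library values for the Timp genes, the 8 highest members, the 5 largest rises and falls called without overlap in each main comparison, and the largest rise and fall of each step, and up to 3 genes per pathway list. Members and lists were chosen with earlier results of these data known. Alternatives were another pseudocount, other filters, median-of-ratios and quantile scaling, no trend, no Y2 libraries, a replicate block and leaving out each library.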

Additional observations from a re-analysis of the deposited data

How the results depend on the processing

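Most counts of members called kept within 1.5 times of the reported value. With the filter at 5 FPKM, which leaves 22 members, 22 were called over all ages, 5 were lower at E17 than at E13, 7 were lower at P60 than at P7, and the 10 steps held 79 calls instead of 122. Without a filter 3 members, not 1, were higher at Y2 than at P60. Without the Y2 libraries 9 members, not 5, were lower at P7 than at E17. Leaving out 1 library at a time gave 34 to 38 members over all ages, with 6 higher each time and 6 to 10 lower at E17 than at E13. It gave 5 to 8 higher and 4 to 5 lower at P7, 6 to 9 higher and 9 to 10 lower at P60, 1 to 3 higher and 12 to 18 lower at Y2, and 100 to 163 step calls. With 1 library left out, the lone library of that age is assumed to vary like the others.

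Of 190 calls of single members in the main comparisons and steps, 104 held under every alternative in which they were tested. The other 86 were lost under at least 1, and 31 of them under an alternative other than leaving out a library. Calls of members removed by the 5 FPKM filter, and Y2 calls without the Y2 libraries, could not be lost there. Without Y2 replicate 2, 3 differences between P60 and Y2 that were not called changed sign and were called: Adamts19 at 0.57, Adamtsl4 at -0.64 and Mmp15 at -0.44. Without Y2 replicate 1 they were -0.61, 1.96 and 1.00416, also called. The cause was not tested.

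Replicate numbers are shared between ages, and no label ties them to a shared animal or batch. Deviations of equal numbers correlated at -0.00129, 0.0776, -0.0252 and -0.0612 in the 4 main comparisons and at -0.129 to 0.265 over all pairs of ages, so the numbers were not taken to pair the libraries. With a replicate block 36 members were called over all ages and 119 calls were made over the steps, and the 8 counts of the main comparisons were the same. FPKM depth limits members under about 1 FPKM, which rest on few reads.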
